A study of Homo sapiens with 21 samples.

Results

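The aryl hydrocarbon receptor axis was followed through 6 genes, AHR, ARNT, AHRR, TIPARP, CYP1A1 and CYP1B1, in 21 RNA-seq libraries of drug-resistant Panc-1 clones. Panc-1 is an established human pancreatic ductal carcinoma line. The 6 genes were found by gene name, each on 1 row of a count table of 58233 genes. The set was chosen with measured values in view: the level of CYP1B1 across the drugs and in single ATUX libraries was already known. CYP1B1 is therefore described without a test, and the other 5 genes were tested with p-values adjusted over all genes.

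Clones ATUX8H and ATUX9D were resistant to ATUX. Clones SMAP8D, SMAP9C and SMAP6G were resistant to SMAP, and Sor6G and Sor9H to Sorafenib. The series describes ATUX and SMAP as drugs that activate the phosphatase PP2A, and Sorafenib is a multikinase inhibitor. All clones shared the parental line, about 4 months of stepwise drug exposure, cloning by dilution and culture in 8 µM of their drug. Each clone was 1 colony, picked in part on qRT-PCR results, and was sampled in 3 libraries. Every difference below is between resistant clones, since parental cells without drug are not analysed here.

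AHR is a ligand-activated transcription factor of the bHLH-PAS family that waits in the cytosol with chaperones, moves to the nucleus when it binds a ligand, and pairs there with ARNT. The pair binds DNA at a short core motif, GCGTG, and raises CYP1A1 and CYP1B1, the P450 enzymes that oxidise polycyclic aromatic hydrocarbons and oestrogens, along with AHRR and TIPARP. AHRR is a repressor that competes with AHR for ARNT, and TIPARP is an ADP-ribosyltransferase that limits AHR activity, so both act as brakes on the receptor. CYP1B1 is often expressed in tumours.

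Libraries held 21022621 to 27691256 counts (median 23026429). Mitochondrial transcripts made up 3.19 to 5.22%. The duct keratins KRT8, KRT18 and KRT19 and the duct factor SOX9 were counted in every library, whereas CFTR, a channel of duct cells, was at 0 in all 21 libraries. Marker sums for acinar cells stayed at or below 0.318 CPM, for endocrine cells at or below 0.114 CPM, for endothelial cells at or below 1.38 CPM and for immune cells at or below 3.35 CPM. The duct marker sum was 6994 to 13451 CPM in ATUX, 1494 to 3320 CPM in SMAP and 3585 to 5129 CPM in Sorafenib libraries. The sum of 5 fibroblast markers was 20.9 to 48 CPM in ATUX, 49.4 to 180.2 CPM in SMAP and 10.8 to 17.4 CPM in Sorafenib libraries. Only 1 of these markers, COL1A1, had a median of at least 1 CPM over the 21 libraries, at 45 CPM. COL1A2, DCN, LUM and PDGFRB had medians of 0.045 to 0.72 CPM. The order of drugs in the sum was the same as for CYP1B1, and its part in the results was not tested. The third libraries of both ATUX clones stood apart from their first 2: chi-square values divided by their degrees of freedom were 20.3 to 30.1 for these pairs, against 3.6 and 3.83 between the first 2 libraries of these clones and 2.26 to 15.6 in the other clones, where the highest values belonged to the third Sor9H library. For CYP1B1, TIPARP and CYP1A1, the comparisons of ATUX with the other drugs are given with and without those ATUX libraries.

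Sequences before transcript starts of the axis genes are shown first, because the receptor's own core motif can be read in them. RefSeq promoter entries (build GRCh38.p14) were matched for 5 of the 6 genes, as 8 windows of 250 bases that end just before a transcript start. Capitals mark GCGTG on the gene's strand or its reverse complement CACGC. The first window is that of CYP1A1, chr15:74725529-74725778 on the minus strand, with 1 match. The second is the most upstream window of TIPARP, chr3:156674340-156674589 on the plus strand, with 2 matches, and the others are both windows of AHRR on the plus strand, chr5:321464-321713 with 1 match and chr5:322360-322609 with 2 matches. These TIPARP and AHRR windows lie inside the gene bodies of the deposited table, past the gene starts given there.
CYP1A1: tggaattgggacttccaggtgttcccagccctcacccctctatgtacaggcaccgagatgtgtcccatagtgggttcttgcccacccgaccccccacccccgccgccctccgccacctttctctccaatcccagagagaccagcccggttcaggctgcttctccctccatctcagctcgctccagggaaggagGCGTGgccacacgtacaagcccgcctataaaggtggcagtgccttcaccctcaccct
TIPARP: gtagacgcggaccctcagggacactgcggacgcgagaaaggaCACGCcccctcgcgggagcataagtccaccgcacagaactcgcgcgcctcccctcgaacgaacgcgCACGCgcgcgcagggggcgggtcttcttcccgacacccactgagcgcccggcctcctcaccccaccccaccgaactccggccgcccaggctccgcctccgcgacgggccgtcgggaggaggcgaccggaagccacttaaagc
AHRR, first window: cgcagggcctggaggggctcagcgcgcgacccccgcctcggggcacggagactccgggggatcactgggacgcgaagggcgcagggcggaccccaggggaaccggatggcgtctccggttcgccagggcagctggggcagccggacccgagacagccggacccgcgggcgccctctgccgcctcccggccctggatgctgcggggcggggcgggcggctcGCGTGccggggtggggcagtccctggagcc
AHRR, second window: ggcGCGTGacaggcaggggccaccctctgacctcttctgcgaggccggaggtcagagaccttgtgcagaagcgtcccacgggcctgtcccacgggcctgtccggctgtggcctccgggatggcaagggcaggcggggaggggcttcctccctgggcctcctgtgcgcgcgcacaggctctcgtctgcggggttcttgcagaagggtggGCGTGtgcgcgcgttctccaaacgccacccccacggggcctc
The windows of AHR and ARNT and the other 2 TIPARP windows held no match. A match is a description of letters only: 32.2% of all 35116 promoter windows of this length held at least 1 GCGTG on either strand. The longer motif TNGCGTG, which contains the core, was found in 4.52% of all windows and among those of the axis only in the first window of AHRR.

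Of the 6 genes CYP1B1 had the widest range of levels: it was abundant in ATUX and SMAP clones and nearly uncounted in Sorafenib clones. Levels are given as CPM, counts scaled to the size and composition of each library. Clone ATUX8H had 259, 252.5 and 836.5 CPM in its 3 libraries, and ATUX9D had 361, 365 and 934 CPM. SMAP8D had 1201, 1333 and 1303 CPM, SMAP9C had 848, 862 and 906 CPM, and SMAP6G had 815, 778 and 775 CPM. In the Sorafenib clones 25 counts were found in 6 libraries, 7, 5 and 3 in Sor6G and 5, 2 and 3 in Sor9H, against 69473 counts in the 6 ATUX libraries and 205541 in the 9 SMAP libraries.

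Every ATUX and SMAP library thus lay far above every Sorafenib library in CYP1B1. Among the SMAP clones, SMAP8D lay above SMAP9C and SMAP9C above SMAP6G without overlap of their libraries. The ranges of SMAP6G and ATUX9D overlapped, as did those of ATUX9D and ATUX8H and those of Sor6G and Sor9H. Over clones, CYP1B1 averaged 496.5 ± 74.7 CPM in ATUX clones (SD, n = 2), 973 ± 268 CPM in SMAP clones (SD, n = 3) and 0.174 ± 0.0371 CPM in Sorafenib clones (SD, n = 2). The fitted log2 fold change was -0.97 ± 0.241 (SE) for ATUX against SMAP, 11.46 ± 0.422 for ATUX against Sorafenib and 12.43 ± 0.43 for SMAP against Sorafenib, given with no test. The values against Sorafenib rest on its 25 counts. Without the third ATUX libraries the log2 fold change was -1.64 for ATUX against SMAP and 10.79 for ATUX against Sorafenib. In bulk RNA, fewer cells with a transcript and less of it per cell cannot be told apart.

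**Figure D1:**
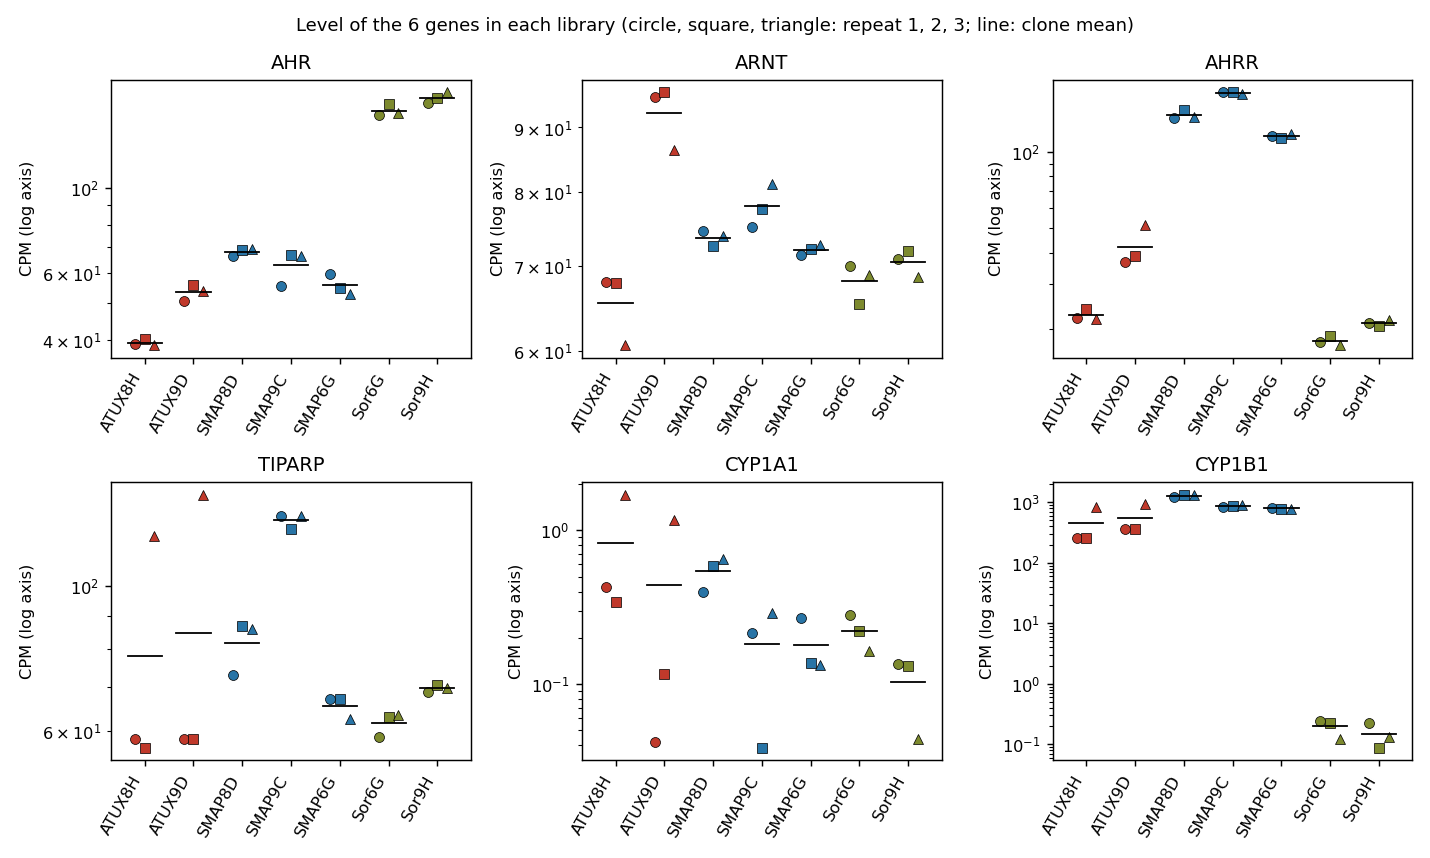
Level of AHR, ARNT, AHRR, TIPARP, CYP1A1 and CYP1B1 in CPM on a log axis for each of the 21 libraries, grouped by clone (ATUX red, SMAP blue, Sorafenib green; circle, square and triangle for repeats 1, 2 and 3; line for the mean of a clone). AHR is highest in the Sorafenib clones, AHRR in the SMAP clones, CYP1B1 is at or below 0.246 CPM in the Sorafenib libraries, and the triangles of TIPARP, CYP1A1 and CYP1B1 lie above the other ATUX symbols.

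The bodies of CYP1B1-AS1 and RMDN2 overlap CYP1B1 (chromosome 2, 38066973 to 38109902, minus strand, build GRCh38) on the opposite strand. CYP1B1-AS1, an antisense transcript, averaged 1.73 ± 0.133 CPM in ATUX clones, 1.58 ± 0.482 CPM in SMAP clones and 0.014 ± 0.001 CPM in Sorafenib clones (SD over clones), where it had 2 counts in 6 libraries. RMDN2, a gene of a microtubule-associated protein family, was at 4.11 ± 0.501 CPM in ATUX clones, 5.57 ± 0.321 CPM in SMAP clones and 3.28 ± 0.402 CPM in Sorafenib clones (SD). The low antisense counts thus had the same order as those of CYP1B1 between Sorafenib and the other drugs; the library kit keeps the strand, but no source used here gives the strand setting of the counting, so reads of CYP1B1 and its antisense partner cannot be told apart. The 24 other tested genes within 1 Mb of CYP1B1 had a median log2 fold change of -0.03 for ATUX against SMAP, 0.1 for ATUX against Sorafenib and 0.27 for SMAP against Sorafenib.

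AHR, the receptor itself, was lower in ATUX and SMAP clones than in Sorafenib clones. Clone ATUX8H had 39.1, 40.4 and 38.8 CPM and ATUX9D had 50.6, 55.7 and 53.7 CPM. In the SMAP clones the libraries ran from 52.7 to 69.3 CPM with a median of 66.3 CPM. Sor6G had 155, 165 and 157 CPM, and Sor9H had 167, 172 and 177 CPM. No ATUX or SMAP library reached the lowest Sorafenib library.

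AHR averaged 46.9 ± 10.5 CPM in ATUX clones, 61.8 ± 6.58 CPM in SMAP clones and 165 ± 8.79 CPM in Sorafenib clones (SD). It fell by 1.82 ± 0.185 on the log2 scale (SE) in ATUX against Sorafenib clones, with an adjusted p of 0.00301 in edgeR's quasi-likelihood test, and by 1.42 ± 0.162 in SMAP against Sorafenib clones, with an adjusted p of 0.00205. Both comparisons share the Sorafenib clones. Over all 18613 genes tested, 12.5% were lower and 13.3% higher in ATUX against Sorafenib clones, and 17.7% were lower and 16.8% higher in SMAP against Sorafenib clones. Between ATUX and SMAP clones the log2 fold change of AHR was -0.40 (95% interval -0.79 to 0; adjusted p 0.169), where 5.27% of all genes were higher and 5.06% lower; with single libraries as replicates and the clone as a random block in limma-voom the adjusted p was 0.0185.

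The 10 other genes tested within 1 Mb of AHR (chromosome 7, 17298622 to 17346152, plus strand) had median log2 fold changes of 0.03 for ATUX against SMAP, -0.75 for ATUX against Sorafenib and -0.72 for SMAP against Sorafenib. They ranged from -2.42 to 0 for ATUX against Sorafenib and from -5.68 to 0.36 for SMAP against Sorafenib, so the values of AHR lay inside the range of its neighbours. The order of clones by AHR was Sor9H, Sor6G, SMAP8D, SMAP9C, SMAP6G, ATUX9D and ATUX8H. Neighbours from SMAP8D down to ATUX9D in this order overlapped in their libraries, and the rest did not.

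**Figure D2:**
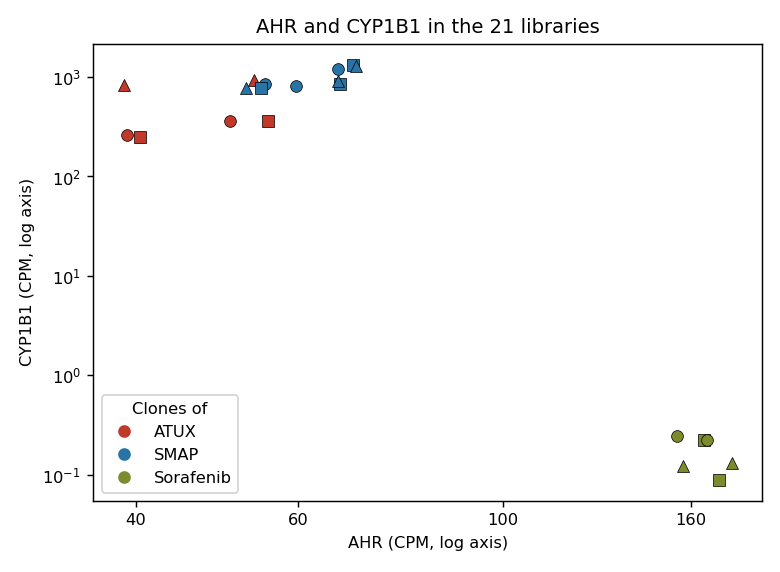
CYP1B1 against AHR, both in CPM on log axes, 1 point per library (circle, square and triangle for repeats 1, 2 and 3). The ATUX and SMAP libraries lie at 38.8 to 69.3 CPM of AHR with at least 252.5 CPM of CYP1B1, and the 6 Sorafenib libraries lie at 155 to 177 CPM of AHR with at most 0.246 CPM of CYP1B1.

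The libraries with the most receptor transcript were thus those with the least CYP1B1. Since they fall into separate clusters by drug, no correlation between the levels of AHR and CYP1B1 is given. Only their correlation in deviations from the clone mean is given further below.

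AHR also differed between clones of a drug, where p-values measure only the spread between libraries. It was lower in ATUX8H than in ATUX9D, at 39.5 ± 0.853 CPM against 53.3 ± 2.53 CPM (SD, n = 3 libraries), a log2 fold change of -0.43 ± 0.064 (adjusted p 4.8e-06, edgeR). This fit did not pair libraries by repeat number. A fit of the ATUX libraries alone with that pairing kept the calls of AHR, ARNT and AHRR, with larger adjusted p-values given at the end. SMAP8D was above SMAP6G, at 68.2 ± 1.62 CPM against 55.7 ± 3.6 CPM, with a log2 fold change of 0.29 ± 0.0623 (adjusted p 0.000702). SMAP9C against SMAP6G gave 0.17 ± 0.0626 (adjusted p 0.0303), a call that was lost without SMAP9C library 2 or 3 or SMAP6G library 2 or 3 (adjusted p 0.118 to 0.167). SMAP8D against SMAP9C gave 0.12 (95% interval -0.01 to 0.25) and Sor6G against Sor9H gave -0.11 (95% interval -0.24 to 0.01), both with adjusted p 0.148. Among all 16504 genes tested between clones, the share called was 46.1% for ATUX8H against ATUX9D, 35.1% for SMAP8D against SMAP9C, 34.8% for SMAP8D against SMAP6G, 39.7% for SMAP9C against SMAP6G and 33.7% for Sor6G against Sor9H.

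ARNT, the partner that AHR needs to bind DNA (chromosome 1, 150809705 to 150876768, minus strand), was at similar levels in most clones. Its libraries ran from 60.6 to 95.9 CPM in ATUX clones (median 77.2), from 71.5 to 81.3 CPM in SMAP clones (median 73.9) and from 65.4 to 72 CPM in Sorafenib clones (median 69.5). No drug comparison passed the test: the log2 fold change was 0.11 for ATUX against SMAP (95% interval -0.26 to 0.49; adjusted p 0.69), 0.20 for ATUX against Sorafenib (-0.21 to 0.62; adjusted p 0.411) and 0.09 for SMAP against Sorafenib (-0.28 to 0.47; adjusted p 0.68). Both ATUX values changed sign without ATUX9D, to -0.18 and -0.08.

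The widest gap in ARNT was between the ATUX clones. ATUX8H had 68, 67.9 and 60.6 CPM, against 95.1, 95.9 and 86.4 CPM in ATUX9D. The libraries of these clones did not overlap, and ARNT was lower in ATUX8H by a log2 fold change of -0.50 ± 0.0523 (adjusted p 2.86e-08). In both ATUX clones the third library was the lowest, at 0.893 times the mean of the first 2 in ATUX8H and 0.904 times in ATUX9D. Between the other clones of a drug, adjusted p ranged from 0.0916 to 0.688; for SMAP9C against SMAP6G (log2 fold change 0.11) the call was gained when only these clones' libraries were fitted (0.12; adjusted p 0.0266).

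AHRR, the repressor that competes for ARNT, was high in SMAP clones. The libraries had 22.2, 23.9 and 21.8 CPM in ATUX8H and 36.7, 38.8 and 51.2 CPM in ATUX9D. SMAP8D had 136, 147 and 138 CPM, SMAP9C had 172, 172 and 170 CPM, and SMAP6G had 116, 114 and 117 CPM. In Sor6G the values were 17.8, 18.8 and 17.2 CPM and in Sor9H they were 21.1, 20.6 and 21.8 CPM. Every SMAP library was above every ATUX and Sorafenib library, and no neighbouring clones in the order of AHRR levels overlapped.

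AHRR averaged 32.7 ± 14.2 CPM in ATUX clones, 141 ± 27.2 CPM in SMAP clones and 19.5 ± 2.22 CPM in Sorafenib clones (SD). It fell by 2.11 ± 0.311 on the log2 scale in ATUX against SMAP clones (adjusted p 0.0141, edgeR) and rose by 2.85 ± 0.323 in SMAP against Sorafenib clones (adjusted p 0.00217). ATUX against Sorafenib gave 0.74 (95% interval -0.02 to 1.5; adjusted p 0.129). That value was 1.11 without ATUX8H (adjusted p 0.0258) and 0.21 without ATUX9D (adjusted p 0.587), so the ATUX clones differed in it.

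The medians of genes around AHRR had the same signs as AHRR. It lies near the start of chromosome 5 (304176 to 438291, plus strand), where the 27 other tested genes within 1 Mb had median log2 fold changes of -0.97 for ATUX against SMAP, 0.73 for ATUX against Sorafenib and 1.54 for SMAP against Sorafenib. The 93 genes of the first 50 Mb of chromosome 5 with at least 5 CPM had medians of -0.96, 0.14 and 1.13 in the same comparisons. For ATUX against SMAP the value of AHRR, -2.11, lay below the lowest of the 27 neighbours, -1.66; for SMAP against Sorafenib its value, 2.85, lay within their range of 0.55 to 3.96. The part of the chromosome region in the level of AHRR was not tested.

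PDCD6, a calcium-binding protein gene whose body overlaps AHRR on the same strand, averaged 109 ± 9.97 CPM in ATUX clones, 225 ± 28.3 CPM in SMAP clones and 94 ± 8.18 CPM in Sorafenib clones (SD). The ratio of AHRR to PDCD6 in CPM was 0.221 in ATUX8H, 0.367 in ATUX9D, 0.698 in SMAP8D, 0.66 in SMAP9C, 0.528 in SMAP6G, 0.204 in Sor6G and 0.212 in Sor9H. AHRR was therefore higher in SMAP clones relative to PDCD6 as well; how reads in the shared stretch were assigned is not given in the sources used here, and AHRR counts are uncertain to that extent.

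Each comparison of clones of a drug also passed the test for AHRR, 5 of 5, where 33.7% to 46.1% of all genes were called. The log2 fold change was -0.90 ± 0.0825 for ATUX8H against ATUX9D (adjusted p 2.95e-09), -0.29 ± 0.0724 for SMAP8D against SMAP9C (adjusted p 0.00282), 0.28 ± 0.073 for SMAP8D against SMAP6G (adjusted p 0.00472) and 0.56 ± 0.0729 for SMAP9C against SMAP6G (adjusted p 1.18e-06). For Sor6G against Sor9H it was -0.24 ± 0.0879 (adjusted p 0.0376), and this call was lost without any 1 of the 6 Sorafenib libraries (adjusted p 0.0558 to 0.147).

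Levels of different genes were compared per length, as CPM per kilobase of the deposited gene length. ATUX clones had 7.04 ± 1.58 of AHR, 12.3 ± 3.11 of ARNT and 4.26 ± 1.85 of AHRR (SD over clones). SMAP clones had 9.28 ± 0.987 of AHR, 11.4 ± 0.415 of ARNT and 18.4 ± 3.54 of AHRR. Sorafenib clones had 24.8 ± 1.32 of AHR, 10.7 ± 0.194 of ARNT and 2.55 ± 0.29 of AHRR. The order of the 3 transcripts thus differed by drug, with ARNT on top in ATUX clones, AHRR in SMAP clones and AHR in Sorafenib clones.

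**Figure D3:**
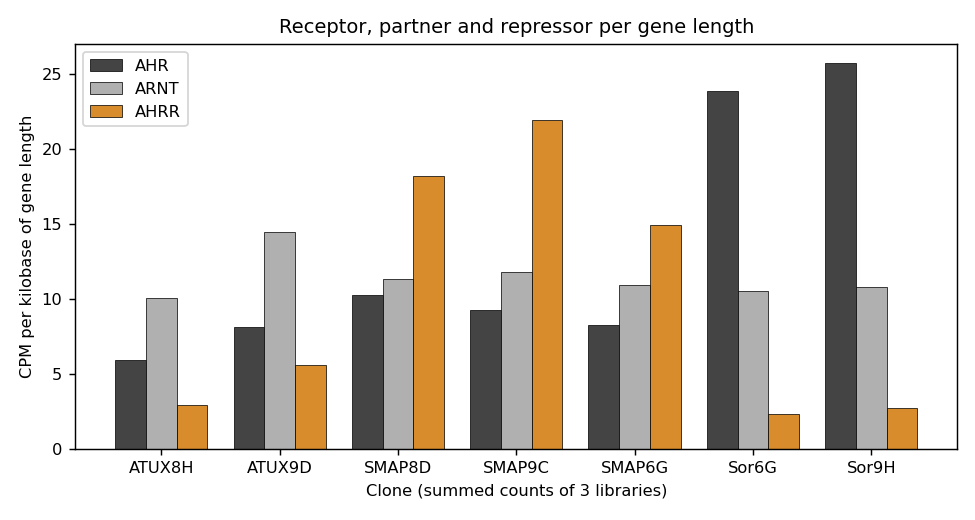
AHR, ARNT and AHRR in CPM per kilobase of gene length, from the summed counts of each clone's 3 libraries (1 bar per gene and clone, no error bar). AHRR exceeds AHR in the 3 SMAP clones, and AHR exceeds ARNT in the 2 Sorafenib clones only.

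The ratio of AHRR to AHR per length was 0.497 in ATUX8H and 0.682 in ATUX9D. It was 1.78 in SMAP8D, 2.37 in SMAP9C and 1.8 in SMAP6G, against 0.098 in Sor6G and 0.107 in Sor9H. The ratio of AHR to ARNT was 0.589 in ATUX8H and 0.564 in ATUX9D, 0.755 to 0.903 in SMAP clones, and 2.27 in Sor6G and 2.39 in Sor9H. Among the targets, CYP1B1 had 82.6 ± 12.4 CPM per kilobase in ATUX clones, 162 ± 44.6 in SMAP clones and 0.0289 ± 0.00617 in Sorafenib clones. CYP1A1 had 0.18 ± 0.0799 in ATUX clones, 0.0863 ± 0.0617 in SMAP clones and 0.048 ± 0.0254 in Sorafenib clones, so the usual partner of CYP1B1 in the response was near the limit of counting in every clone.

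TIPARP, the ADP-ribosyltransferase (chromosome 3, 156673235 to 156706770, plus strand), did not pass the test in any drug comparison, but single libraries and clones differed. ATUX8H had 58.3, 56.6 and 119.5 CPM, and ATUX9D had 58.4, 58.2 and 138 CPM. SMAP8D had 73.1, 86.9 and 85.8 CPM, SMAP9C had 128, 122 and 128 CPM, and SMAP6G had 67, 67.2 and 62.5 CPM. The Sorafenib libraries ran from 58.8 to 70.7 CPM with a median of 66.3 CPM. SMAP9C and the third ATUX libraries were high, and the other ATUX libraries lay just below the lowest Sorafenib library.

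By drug, TIPARP averaged 81 ± 4.89 CPM in ATUX clones, 90.3 ± 30.5 CPM in SMAP clones and 65.8 ± 5.53 CPM in Sorafenib clones (SD). The log2 fold change was -0.16 for ATUX against SMAP (95% interval -0.78 to 0.47; adjusted p 0.74), 0.30 for ATUX against Sorafenib (-0.38 to 0.98; adjusted p 0.463) and 0.46 for SMAP against Sorafenib (-0.17 to 1.09; adjusted p 0.219). Without SMAP9C the first of these was 0.14. Without the third ATUX libraries TIPARP gave -0.63 for ATUX against SMAP (adjusted p 0.171) and -0.17 for ATUX against Sorafenib (adjusted p 0.676).

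Between SMAP clones TIPARP was higher in SMAP9C, at 126 ± 3.38 CPM against 65.6 ± 2.67 CPM in SMAP6G (SD, n = 3 libraries), a log2 fold change of 0.94 ± 0.303 (adjusted p 0.0225). The call was lost without SMAP9C library 1 or 3 or any of the SMAP6G libraries (adjusted p 0.0507 to 0.0669). When only the libraries of these 2 clones were fitted, a choice made after seeing the data, the value was 0.95 with an adjusted p of 1.92e-17. SMAP8D against SMAP9C gave -0.62 (adjusted p 0.127) over all clones, -0.61 (adjusted p 1.09e-10) in those clones alone and -0.59 (adjusted p 8.82e-18) over all clones without the filter on low counts. SMAP8D against SMAP6G gave 0.32 (adjusted p 0.457) over all clones and 0.33 (adjusted p 0.000154) alone, and Sor6G against Sor9H gave -0.18 (adjusted p 0.71) over all clones and -0.17 (adjusted p 0.0135) alone. ATUX8H against ATUX9D gave -0.12 (95% interval -0.76 to 0.53, adjusted p 0.786). The fit over all clones took the spread of a gene from all 21 libraries, not only those compared. TIPARP had an SD of 35.8 CPM in ATUX8H and 46 CPM in ATUX9D. The SD was 7.7 CPM in SMAP8D, 3.38 CPM in SMAP9C and 2.67 CPM in SMAP6G. The part of the ATUX libraries in these adjusted p-values was not tested.

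CYP1A1, the classic induced P450 of the axis (chromosome 15, 74719542 to 74725610, minus strand), had 0.0387 to 1.7 CPM in all 21 libraries. ATUX8H had 10, 8 and 38 counts and ATUX9D had 1, 3 and 26 counts. SMAP8D had 10, 13 and 16 counts, SMAP9C had 5, 1 and 6, and SMAP6G had 6, 3 and 3. Sor6G had 8, 5 and 4 counts and Sor9H had 3, 3 and 1. The third ATUX libraries had the most counts of all.

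Over clones CYP1A1 averaged 0.618 ± 0.275 CPM in ATUX clones, 0.296 ± 0.212 CPM in SMAP clones and 0.165 ± 0.0873 CPM in Sorafenib clones (SD). The log2 fold change was 1.05 for ATUX against SMAP (95% interval -0.48 to 2.58; adjusted p 0.328), 1.89 for ATUX against Sorafenib (0.10 to 3.67; adjusted p 0.108) and 0.83 for SMAP against Sorafenib (-0.85 to 2.51; adjusted p 0.393). Without the third ATUX libraries CYP1A1 gave -0.35 for ATUX against SMAP (adjusted p 0.822) and 0.48 for ATUX against Sorafenib (adjusted p 0.731). No comparison of clones for CYP1A1 passed the test in the fit over all clones (adjusted p 0.172 to 0.981), but ATUX8H against ATUX9D gave 3.26 (adjusted p 0.0015) without the third ATUX9D library. Without the filter on low counts SMAP8D against SMAP9C gave 1.63 (adjusted p 0.0234) and SMAP8D against SMAP6G gave 1.58 (adjusted p 0.0314).

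The third ATUX libraries were compared with the mean of the first 2 libraries of the same clone, as ratios of CPM and with no test, since 1 library stands on one side. CYP1B1 was 3.27 times higher in the third ATUX8H library and 2.57 times higher in the third ATUX9D library. TIPARP was 2.08 and 2.37 times higher in these libraries. CYP1A1 had 38 counts in the third ATUX8H library, against 18 in the first 2 together, a ratio of 4.42 (95% counting interval 2.46 to 8.23). In ATUX9D it had 26 counts, against 4 in the first 2 together, a ratio of 14.8 (5.03 to 57.2). The intervals are exact binomial ones and cover counting error only.

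The targets CYP1B1, TIPARP and CYP1A1 were thus high in the third ATUX8H and the third ATUX9D library. The receptor and its partner were not. AHR had ratios of 0.977 in ATUX8H and 1.01 in ATUX9D, and ARNT had ratios of 0.893 and 0.904. AHRR, which the receptor pair also raises, was not higher in the third ATUX8H library, at a ratio of 0.947. Its ratio in ATUX9D was 1.36, below those of CYP1B1, TIPARP and CYP1A1 there. In the SMAP clones the same ratio was 0.973 to 1.06 for CYP1B1 and 0.931 to 1.07 for TIPARP, and in the Sorafenib clones it was 1 to 1.04 for TIPARP. CYP1A1 had ratios of 1.33 in SMAP8D, 2.3 in SMAP9C (95% counting interval 0.639 to 8.94) and 0.661 in SMAP6G, and of 0.65 in Sor6G and 0.329 in Sor9H. Each of these 5 intervals included 1, and that of SMAP9C, which rests on 12 counts, also included the ratio of ATUX8H, 4.42.

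**Figure D4:**
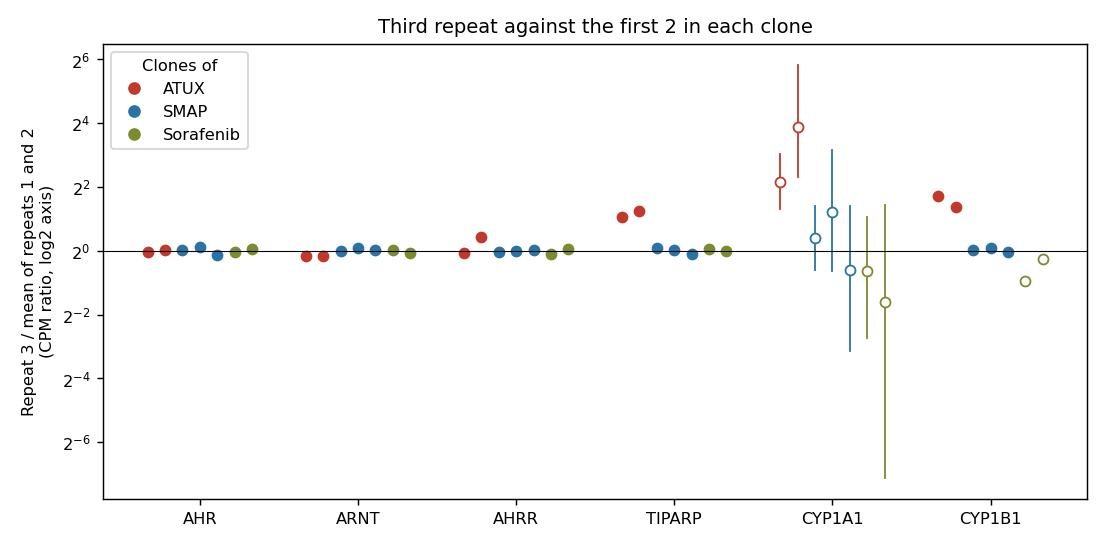
Ratio of the CPM in the third repeat to the mean CPM of repeats 1 and 2, on a log2 axis, for each gene and clone, from left to right ATUX8H, ATUX9D, SMAP8D, SMAP9C, SMAP6G, Sor6G and Sor9H. Open symbols have fewer than 60 counts over the 3 libraries, bars on CYP1A1 are 95% counting intervals, and TIPARP and CYP1B1 lie above 2 in both ATUX clones.

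With the third library, CYP1B1 reached 836.5 CPM in ATUX8H and 934 CPM in ATUX9D, inside the range of the SMAP libraries, 775 to 1333 CPM. The other 4 ATUX libraries, at 252.5 to 365 CPM, were all below that range. Of 11032 genes averaging 5 CPM or more, 30 were at least 2-fold higher in the third than in the first 2 libraries of both ATUX clones, or 0.272%, and CYP1B1 and TIPARP were 2 of them; CYP1A1 was below that level. In the other 5 clones, 8 to 21 genes were at least 2-fold higher in the third library of a clone, against 115 in ATUX8H and 89 in ATUX9D.

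Of the 73 other pathway genes, 47 averaged 5 CPM or more, and 1 of them, STC2, reached 2-fold in the third ATUX8H and the third ATUX9D library. STC2, which encodes the secreted glycoprotein stanniocalcin, had 79.2, 78.3 and 340.5 CPM in ATUX8H and 66.2, 68 and 214 CPM in ATUX9D. EREG, which encodes the growth factor epiregulin, was 3.65 times higher in the third ATUX8H library but 1.26 times in that of ATUX9D. NPAS2, a bHLH-PAS factor of the circadian clock, was 1.81 and 1.66 times higher. ABCG2, a drug efflux pump that AHR can induce, was 1.2 and 1.54 times higher, and NQO1, a quinone reductase, was 1.35 and 1.32 times higher.

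Genes that followed CYP1B1 from library to library were sought among 11030 genes, with each library expressed as its deviation from the mean of its clone, which leaves out all differences between clones. The highest correlations over the 21 libraries were those of TMEM156 (0.956), SLC38A2 (0.948), MEG9 (0.945), STC2 (0.942), STK17A (0.929), MIR100HG, CDCP1 and PXK (each 0.928), ETS1 (0.927) and SLC7A11 (0.926). SLC38A2 and SLC7A11 are amino acid transporters, ETS1 is a transcription factor, and MEG9 and MIR100HG are long non-coding RNAs. The lowest were those of FADS2 (-0.963), a fatty acid desaturase, PADI3 (-0.956), TMEM135 (-0.949), PPP1R1B (-0.948) and CAP2 (-0.946). Among the axis genes the same measure was 0.874 for TIPARP, 0.809 for CYP1A1, 0.456 for AHRR, -0.027 for AHR and -0.770 for ARNT. These values are descriptions and rest largely on the third ATUX libraries; by ranks, 3 of the same 10 genes were among the top 10.

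The single values show this. SLC38A2 had 656, 629 and 924 CPM in ATUX8H and 978, 964 and 1240 CPM in ATUX9D. FADS2 had 221, 220 and 66.7 CPM in ATUX8H and 340, 339 and 144 CPM in ATUX9D. The third ATUX libraries lay above 2 alike ones in SLC38A2, as in CYP1B1, and below them in FADS2. Both genes were picked by their correlation with CYP1B1 in these same libraries, so this likeness follows from the choice.

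Over the 7 clones, the genes most like CYP1B1 included RNF128 (Pearson r 0.998), NUDT9 (0.997), RAB5C, ZNF518B, PSMB3 and JAM3 (each 0.996), and CA8, BLMH and FBXO2 (each 0.995). The least like were PFN1 (-0.998), DNMT3A (-0.994), DNAL1 and MIS12 (each -0.993) and PLCD1 (-0.992). With 7 points, of which the 2 Sorafenib clones stand apart, such values describe a shared contrast between Sorafenib and the other drugs. By ranks, 39 genes reached a correlation of 1 with CYP1B1, and none of the first 10 of these in the table was among the 10 highest by Pearson r.

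Some of these genes were nearly absent from the Sorafenib clones, as CYP1B1 was. RNF128, a ubiquitin ligase, had 15.7 ± 3.3 CPM in ATUX clones and 27.9 ± 6.03 CPM in SMAP clones (SD), and was at 0 in the Sorafenib clones. CA8, a carbonic anhydrase-related protein, had 76.7 ± 26.3 CPM in ATUX clones, 70.2 ± 15 CPM in SMAP clones and 0.0274 ± 0.0179 CPM in Sorafenib clones. Others differed far less, such as NUDT9, at 21.8 ± 0.239 CPM in ATUX clones, 22.4 ± 0.186 CPM in SMAP clones and 15.9 ± 0.0569 CPM in Sorafenib clones. DNMT3A, a DNA methyltransferase, ran the other way, at 23.4 ± 0.217 CPM in ATUX clones, 24 ± 0.372 CPM in SMAP clones and 47.2 ± 0.884 CPM in Sorafenib clones.

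The genes most like AHR over the 7 clones were NEK1 and RCN3 (each 0.995), ZNRD1 and DNAL4 (each 0.992) and TNKS2 (0.991). NEK1, a kinase of the cilium and DNA repair, had 26.9 ± 2.61 CPM in ATUX clones, 30.6 ± 1.3 CPM in SMAP clones and 44.3 ± 1.21 CPM in Sorafenib clones (SD). RCN3, a calcium-binding protein of the endoplasmic reticulum, had 2.77 ± 0.901 CPM in ATUX clones, 3.92 ± 0.718 CPM in SMAP clones and 28 ± 4.79 CPM in Sorafenib clones. TNKS2, like TIPARP a member of the PARP family, had 146 ± 10.4 CPM in ATUX clones, 153 ± 3.45 CPM in SMAP clones and 200.2 ± 1.8 CPM in Sorafenib clones.

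The surroundings of the axis were described with 73 other genes in 6 lists, of which 59 could be tested between drugs. The other 14, among them CYP1A2, IDO1, IDO2, UGT1A1 and UGT1A6, were too low to test. In ATUX against SMAP clones 4 rose and 2 fell (10.2% of 59, against 5.27% higher and 5.06% lower over all genes). ATUX against Sorafenib clones had 10 higher and 15 lower (42.4%, against 13.3% and 12.5%), and SMAP against Sorafenib clones had 10 higher and 12 lower (37.3%, against 16.8% and 17.7%). The lists had median log2 fold changes of 0.03, 0.01 and 0 in these comparisons, beside 0.02, 0.01 and 0.01 over all genes. The count for ATUX against SMAP moved with single clones, to 1 call without SMAP8D or without SMAP9C. Calls over all genes fell in the same fits, from 1921 of 18613 to 705 of 18359 without SMAP8D and 560 of 18353 without SMAP9C. Calls without an ATUX or a Sorafenib clone are not counted here, since that drug then has 1 clone and no spread between clones.

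**Figure D5:**
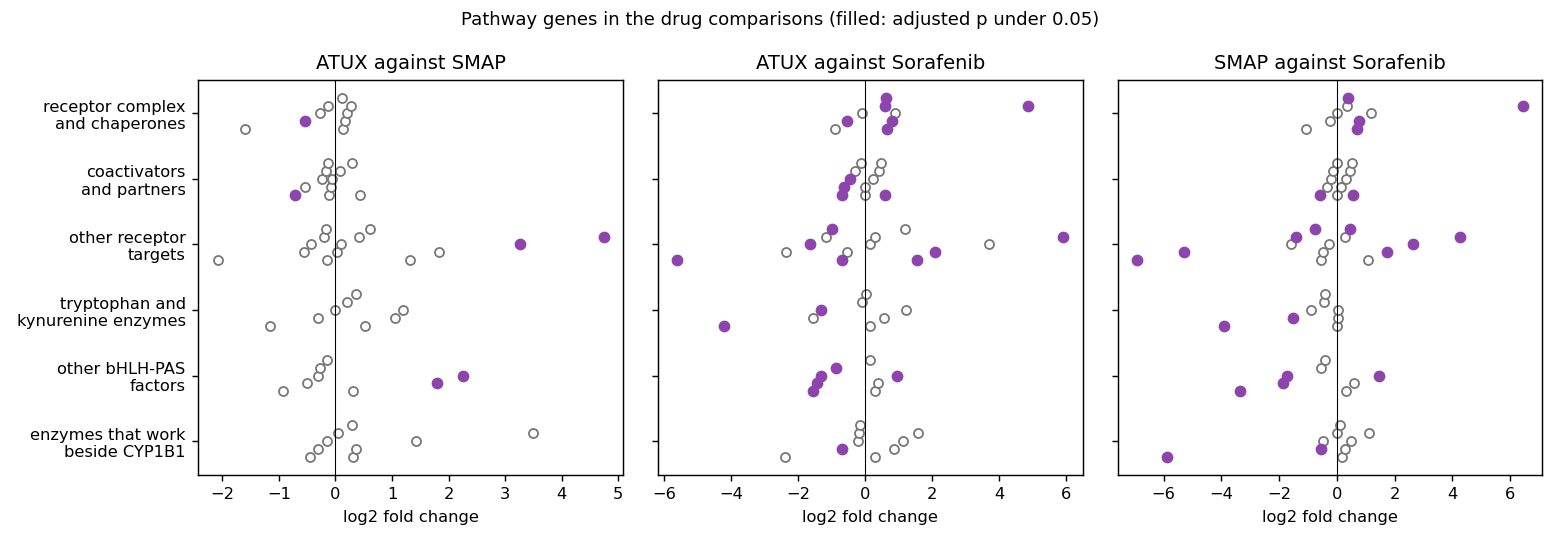
Log2 fold change of each tested pathway gene, by list, in the drug comparisons ATUX against SMAP, ATUX against Sorafenib and SMAP against Sorafenib (1 point per gene, filled where the adjusted p was under 0.05). Filled points number 6, 25 and 22, and they lie on both sides of 0 in each comparison.

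Most genes of the receptor complex that were called against Sorafenib were higher, opposite in sign to the receptor. Of 9 tested genes of the receptor complex, 5 rose and 1 fell in ATUX against Sorafenib clones, where 13.3% of all genes were higher and 12.5% lower. In SMAP against Sorafenib clones 4 rose, where 16.8% of all genes were higher and 17.7% lower. The median log2 fold changes of the list were 0.62 and 0.40, beside 0.01 over all genes. HSP90AA1, the inducible HSP90 chaperone, averaged 1181 ± 171 CPM in ATUX clones, 1086 ± 24.9 CPM in SMAP clones and 672 ± 22.4 CPM in Sorafenib clones (SD). Its log2 fold change was 0.81 ± 0.138 for ATUX against Sorafenib (adjusted p 0.0098) and 0.69 ± 0.128 for SMAP against Sorafenib (adjusted p 0.00849). HSP90AB1, its constitutive relative, rose by 0.62 ± 0.158 on the log2 scale in ATUX against Sorafenib clones (adjusted p 0.0313). DDB1, part of the ubiquitin ligase that AHR can join, rose by 0.65 ± 0.148 in ATUX (adjusted p 0.0225) and by 0.78 ± 0.137 in SMAP clones (adjusted p 0.00719) against Sorafenib.

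ARNT2, a close relative of ARNT, was the most different gene of that list. It had 47.1 ± 21.4 CPM in ATUX clones, 143 ± 107 CPM in SMAP clones and 1.62 ± 1.54 CPM in Sorafenib clones (SD). It rose by 4.85 ± 0.999 on the log2 scale in ATUX against Sorafenib clones (adjusted p 0.0178) and by 6.46 ± 1.05 in SMAP against Sorafenib clones (adjusted p 0.00605). TBL3, a protein of the small ribosomal subunit processome, fell by 0.54 ± 0.107 in ATUX against SMAP clones (adjusted p 0.0284).

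Among 11 coactivators, 1 (9.09%) was called in ATUX against SMAP clones, where 5.27% of all genes were higher and 5.06% lower. In ATUX against Sorafenib clones 4 were called (36.4%), where 13.3% of all genes were higher and 12.5% lower. In SMAP against Sorafenib clones 2 were called (18.2%), where 16.8% were higher and 17.7% lower. The 1 gene that fell in ATUX against SMAP clones was CREBBP, a histone acetyltransferase, by 0.71 ± 0.124 (adjusted p 0.0207). EP300, its relative, rose by 0.61 ± 0.148 in ATUX against Sorafenib clones (adjusted p 0.0271), where 3 genes of the list fell. SMARCA4, a chromatin remodeller, rose by 0.56 ± 0.157 (adjusted p 0.0341) and RELB, an NF-kB subunit, fell by 0.57 ± 0.161 (adjusted p 0.0339) in SMAP against Sorafenib clones.

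Other receptor targets moved in both directions. Of 14 tested genes, 2 rose in ATUX against SMAP clones (14.3%), and 3 rose and 4 fell in ATUX against Sorafenib clones (50%). In SMAP against Sorafenib clones 4 rose and 4 fell (57.1%). Over all genes, the shares higher and lower were 5.27% and 5.06%, 13.3% and 12.5%, and 16.8% and 17.7% in these comparisons. ABCG2 averaged 190 ± 108 CPM in ATUX clones, 19.8 ± 7.74 CPM in SMAP clones and 3.13 ± 1.68 CPM in Sorafenib clones (SD). It rose by 3.26 ± 0.527 on the log2 scale in ATUX against SMAP clones (adjusted p 0.0182), by 5.92 ± 0.702 in ATUX against Sorafenib clones (adjusted p 0.00429) and by 2.65 ± 0.586 in SMAP against Sorafenib clones (adjusted p 0.0159). Its order by drug, with ATUX above SMAP, thus differed from that of CYP1B1.

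EREG had 32.7 ± 22.3 CPM in ATUX clones, 1.22 ± 0.833 CPM in SMAP clones and 47.6 ± 32.4 CPM in Sorafenib clones (SD). It rose by 4.74 ± 0.82 in ATUX against SMAP clones (adjusted p 0.021) and fell by 5.29 ± 0.836 in SMAP against Sorafenib clones (adjusted p 0.00551). SLC7A5, a transporter of tryptophan and other large amino acids, rose by 1.56 ± 0.443 in ATUX (adjusted p 0.0449) and by 1.74 ± 0.422 in SMAP clones (adjusted p 0.0217) against Sorafenib. NQO1 ran the other way, with 286 ± 22.9 CPM in ATUX clones, 279 ± 16.4 CPM in SMAP clones and 465 ± 62 CPM in Sorafenib clones. It fell by 0.70 ± 0.141 in ATUX (adjusted p 0.016) and by 0.74 ± 0.127 in SMAP clones (adjusted p 0.00672) against Sorafenib.

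CDKN1B, the cell cycle inhibitor p27, fell by 1.63 ± 0.152 in ATUX (adjusted p 0.00265) and by 1.43 ± 0.133 in SMAP clones (adjusted p 0.00125) against Sorafenib. CCNG2, an unusual cyclin of arrested cells, fell by 0.98 ± 0.293 in ATUX against Sorafenib clones (adjusted p 0.0498). POLK, a DNA polymerase that copies past damaged bases, rose by 0.45 ± 0.102 in SMAP against Sorafenib clones (adjusted p 0.0168).

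Enzymes of tryptophan and kynurenine metabolism, which make or remove natural AHR ligands, had 8 tested genes. In ATUX against SMAP clones edgeR called 0 of them, and DESeq2 and limma-voom called 1 each. Over all genes edgeR called 1921 of 18613, DESeq2 3473 of 19309 and limma-voom 3933 of 15671. At an unadjusted p under 0.05 edgeR had 1 gene of the list, with no share over all genes given. In each comparison with Sorafenib 2 fell (25%). Over all genes, 12.5% were lower and 13.3% higher in ATUX clones, and 17.7% and 16.8% in SMAP clones, against Sorafenib. KYAT1, a kynurenine aminotransferase, averaged 4.94 ± 0.0512 CPM in ATUX clones, 4.28 ± 0.57 CPM in SMAP clones and 12.2 ± 1.7 CPM in Sorafenib clones (SD). It fell by 1.31 ± 0.23 in ATUX (adjusted p 0.0107) and by 1.51 ± 0.204 in SMAP clones (adjusted p 0.00322) against Sorafenib. The other gene was TDO2, a tryptophan dioxygenase named because the count is small, which fell by 4.2 ± 0.529 in ATUX (adjusted p 0.00469) and by 3.9 ± 0.441 in SMAP clones (adjusted p 0.00204), at 3.84 ± 1.37 CPM in Sorafenib clones.

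Other bHLH-PAS factors include hypoxia factors, which pair with ARNT, and clock factors, which pair with ARNTL or ARNTL2. Against Sorafenib, 1 rose and 4 fell of 8 tested in ATUX clones, beside 13.3% higher and 12.5% lower over all genes, and 1 rose and 3 fell in SMAP clones, beside 16.8% and 17.7%. NPAS2 averaged 192 ± 14.4 CPM in ATUX clones, 54.9 ± 10.2 CPM in SMAP clones and 566 ± 30.8 CPM in Sorafenib clones (SD). It rose by 1.8 ± 0.165 in ATUX against SMAP clones (adjusted p 0.00659), and fell by 1.56 ± 0.186 in ATUX (adjusted p 0.00414) and by 3.37 ± 0.17 in SMAP clones (adjusted p 0.000465) against Sorafenib. EPAS1, the hypoxia factor HIF-2 alpha, had 238 ± 41.7 CPM in ATUX clones, 192 ± 40.2 CPM in SMAP clones and 640 ± 15.6 CPM in Sorafenib clones. It fell by 1.43 ± 0.225 in ATUX (adjusted p 0.00797) and by 1.74 ± 0.199 in SMAP clones (adjusted p 0.00209) against Sorafenib.

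ARNTL, the clock partner of NPAS2, rose instead, by 0.94 ± 0.161 in ATUX (adjusted p 0.0101) and by 1.45 ± 0.153 in SMAP clones (adjusted p 0.00174) against Sorafenib. ARNTL2, its relative, fell by 0.86 ± 0.216 (adjusted p 0.0307) and SIM2, a factor known from midline development, by 1.32 ± 0.355 (adjusted p 0.0369) in ATUX against Sorafenib clones.

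Of 9 tested enzymes that work beside CYP1B1, edgeR called 0 in ATUX against SMAP clones, where DESeq2 called 1 and limma-voom 2. Over all genes edgeR called 1921 of 18613, DESeq2 3473 of 19309 and limma-voom 3933 of 15671. At an unadjusted p under 0.05 edgeR had 4 of these enzymes, with no share over all genes given. In ATUX against Sorafenib clones 1 fell (11.1%), where 12.5% of all genes were lower and 13.3% higher. In SMAP against Sorafenib clones 2 fell (22.2%), where 17.7% of all genes were lower and 16.8% higher. CYB5R3, a reductase that passes electrons to cytochrome b5, fell by 0.70 ± 0.18 in ATUX (adjusted p 0.0326) and by 0.56 ± 0.162 in SMAP clones (adjusted p 0.0363) against Sorafenib.

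Between clones of a drug, the lists had 58 tested genes. For ATUX8H against ATUX9D 36 were called (62.1%, against 46.1% of all genes), 23 of them higher and 13 lower, and the 9 genes of the receptor complex were all called, 5 higher and 4 lower. The other comparisons lay nearer to their backgrounds: 22 for SMAP8D against SMAP9C (37.9%, against 35.1%), 24 for SMAP8D against SMAP6G (41.4%, against 34.8%), 21 for SMAP9C against SMAP6G (36.2%, against 39.7%) and 17 for Sor6G against Sor9H (29.3%, against 33.7%).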

How the data were processed

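RNA-seq of 21 libraries (7 clones, 3 repeats each) was used. Libraries were made from 500 ng of RNA with a stranded poly-A kit, per the labels' protocols. The authors deposited whole-number read counts per gene, not normalized. STAR 2.5.2b, featureCounts 1.5.3, Bowtie2 2.3.3.1, cutadapt 1.15, SAMtools 1.5 and build GRCh38 are named, with no role, in the submitters' processing notes. No source used here gives the strand setting, the annotation release or how reads of overlapping genes were assigned. Positions and gene lengths are those of the deposited table, and 0 columns belonged to other samples. Repeats of a clone differed beyond sampling noise (chi-square per degree of freedom at least 2.26 in 21 pairs).

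Drugs were applied before cloning, so the clone was the replicate of a drug. The 3 libraries of each clone were added up, and edgeR 4.0.16 (R 4.3.3) was run on the 7 sums (TMM, filterByExpr, robust quasi-likelihood F test, 18613 genes). Clones were compared on the 21 libraries with the clone as the factor (16504 genes). Genes with a Benjamini-Hochberg adjusted p under 0.05, over all genes tested, are called. Standard errors come from the F statistic. The labels do not say that repeats were separate cultures. For clones, p-values thus reflect the spread of libraries alone, taken over all 7 clones and possibly technical. For drugs they reflect the spread of picked clones, possibly from 1 culture per drug. CPM are TMM-scaled; values of a drug are means ± SD over clones, and correlations used log2 CPM with a prior count of 2. The scripts were tested on simulated data.

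The members, the pathway lists and the tests were chosen with earlier results of these data known. Named pathway genes are, for each drug comparison and direction, up to 8 called genes with the largest change and at least 5 CPM in the higher drug; genes like CYP1B1 or AHR are the 10 or 5 highest and the 5 lowest correlations (for AHR the highest only) among genes of at least 5 CPM. TDO2 and the examples for the third libraries were named after their values were seen. Not every gene that these rules select is reported here.

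Repeat numbers, taken from the titles, were checked for pairing by the correlation of deviations from the clone means. Over all clones, 5 of 63 same-number pairs exceeded 0.1 (median 0.005). Between ATUX8H and ATUX9D all 3 same-number pairs did (0.122, 0.154 and 0.21), while the 6 pairs with different numbers lay between -0.173 and 0.058, so numbers were taken to pair the libraries of these clones.

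Alternatives were RLE size factors, no filter, DESeq2 1.42.0, limma-voom (limma 3.58.1, clone as a random block, correlation 0.707), single libraries as replicates, a replicate block, leaving out clones or libraries, and dropping the third ATUX libraries; fits of 2 clones alone and of the ATUX libraries with a block were added after seeing the data.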

Additional observations from a re-analysis of the deposited data

How the results depend on the processing

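The calls of AHR in ATUX and in SMAP against Sorafenib clones, and those of AHRR in ATUX against SMAP and in SMAP against Sorafenib clones, kept their direction and passed the threshold in every alternative run on them. AHRR in ATUX against Sorafenib clones was called with limma-voom (adjusted p 0.037) and with single libraries as replicates (0.00138). The count of pathway genes called, 6 for ATUX against SMAP, was 11 with DESeq2 and 15 with limma-voom. It was 33 with single libraries as replicates, with or without a replicate block, and 1 without SMAP8D or without SMAP9C. Over all genes, 1921 of 18613 were called in the main fit, 3473 of 19309 with DESeq2 and 3933 of 15671 with limma-voom. Single libraries gave 8375 of 15671 without and 8152 with a replicate block. Without SMAP8D it was 705 of 18359 and without SMAP9C 560 of 18353, so the calls over all genes moved the same way. For ATUX against Sorafenib it was 25, 42 with single libraries without and 40 with a replicate block, and 7 to 22 without 1 clone. For SMAP against Sorafenib it was 22, 41 with single libraries with or without a replicate block, and 13 to 28 without 1 clone. Fewer clones, or libraries of a clone counted as independent, are part of how these alternatives were built.

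Values that changed sign were those with no call or no test. Without the third ATUX libraries CYP1A1 was -0.35 for ATUX against SMAP and TIPARP -0.17 for ATUX against Sorafenib. Without 1 clone, ARNT ranged from -0.18 to 0.33 for ATUX against SMAP and from -0.08 to 0.42 for ATUX against Sorafenib, and TIPARP from -0.35 to 0.14 for ATUX against SMAP. Without 1 library, ATUX8H against ATUX9D ranged from -0.55 to 0.41 for TIPARP, from -0.13 to 3.26 for CYP1A1 and from -1.11 to 0.30 for CYP1B1, and CYP1A1 in SMAP9C against SMAP6G from -0.53 to 0.47; DESeq2 gave 0 for the last. The cause was not tested. Without the filter on low counts, TIPARP (adjusted p 8.82e-18 and 7.59e-06) and CYP1A1 (0.0234 and 0.0314) were called for SMAP8D against SMAP9C and against SMAP6G, and AHR in SMAP9C against SMAP6G was not (0.0807).

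With the replicate block on the 6 ATUX libraries alone, 33 pathway genes were called for ATUX8H against ATUX9D. In the fit over all clones without the block it was 36. Over all genes these fits called 5964 of 14802 and 7609 of 16504. With the block AHR, ARNT and AHRR stayed called (adjusted p 0.00231, 0.000669 and 0.00229, edgeR). The block changed no other call of the 6 genes between clones. The 10 genes most like CYP1B1 over clones shared 5 with those found without the third ATUX libraries and 0 by ranks. Counts were few for CYP1A1 in every clone and for CYP1B1 in the Sorafenib clones, where 3 counts in a library are 0.123 CPM in Sor6G library 3.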
